A study of Mus musculus with 9 samples.

Results

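The variable segments of the T cell receptor are the genes whose GENCODE M21 symbol starts with Trav (alpha chain) or Trbv (beta chain), and 163 of the 55487 genes in the tables met this rule. They comprise 128 Trav genes on chromosome 14, of which 20 are annotated as pseudogenes, and 35 Trbv genes on chromosome 6, of which 13 are pseudogenes. The study sequenced polyA RNA from 9 samples of naive CD4+ T cells, which came from the lymph nodes of mice of the strain C57BL6/J with a wild-type genotype. The 9 libraries form 3 groups of 3, namely freshly isolated cells without treatment (fresh), cells kept 20 h in culture without interleukin-1 beta (cultured) and cells kept 20 h in culture with 10 ng/mL of recombinant IL-1b (IL-1b-treated). All groups share the genotype, strain and tissue, with the age of the mice and any pooling of mice not given in the sources used here. Whether fresh and cultured cells came from the same mice is also unstated, so in each comparison with fresh cells the effect of culture and a difference between mice cannot be told apart.

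Each T cell builds its receptor by joining 1 variable segment to joining (and, for the beta chain, diversity) segments on the chromosome, and the joined exon is spliced to a constant region gene, Trac for the alpha chain or Trbc1 or Trbc2 for the beta chain. The segment in use is fixed once the rearrangement is made, so that the RNA of a population of naive cells holds a mixture of segments that follows which cells are present and how much receptor RNA each makes. The third hypervariable loop, which contacts the antigen, starts at a conserved cysteine near the 3′ end of the variable segment. In bulk RNA, fewer cells that use a segment and less RNA per cell cannot be told apart.

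The 3′ ends of the Trbv segments that the results below turn on are shown because they carry this cysteine and show how far beta segments differ in sequence. The last 60 bases of the longest GENCODE M21 transcript of each gene (GRCm38, the same assembly as mm10) are printed 5′ to 3′, with the TGT codon of the motif TGTGC in capitals.
Trbv15, chr6:41141188-41141658, plus strand: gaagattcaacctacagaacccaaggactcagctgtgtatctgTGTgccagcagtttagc
Trbv29, chr6:41271394-41271881, plus strand: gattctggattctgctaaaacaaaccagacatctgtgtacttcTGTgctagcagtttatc
Trbv19, chr6:41178375-41179048, plus strand: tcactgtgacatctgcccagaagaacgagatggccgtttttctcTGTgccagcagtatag
Trbv3, chr6:41048290-41048828, plus strand: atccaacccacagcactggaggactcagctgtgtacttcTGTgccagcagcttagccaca
Trbv2, chr6:41047340-41047995, plus strand: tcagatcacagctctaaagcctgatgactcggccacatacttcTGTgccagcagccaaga
Trbv4, chr6:41059394-41059886, plus strand: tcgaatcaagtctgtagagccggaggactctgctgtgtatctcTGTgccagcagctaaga
Trbv5, chr6:41062332-41062803, plus strand: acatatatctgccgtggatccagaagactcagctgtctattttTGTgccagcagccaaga
Trbv31, chr6:41557691-41558452, minus strand: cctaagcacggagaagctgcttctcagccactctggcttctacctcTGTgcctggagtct
The coordinates are those of the whole gene. On the transcribed strand, TGTGC stood in the last 30 bases of 19 of 22 Trbv genes (86.4%), 7 of 13 Trbv pseudogenes (53.8%), 86 of 108 Trav genes (79.6%) and 14 of 20 Trav pseudogenes (70%), that is in 126 of all 163 members (77.3%). A match is a description of these letters only.

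The alpha locus of C57BL/6 mice carries repeated blocks of segments, whose copies bear the letters d and n in their symbols, and these copies limit what a count of a single Trav gene means. Of the 128 Trav genes, 34 had a transcript identical in sequence and length to that of another Trav gene and held 29.5% of the Trav counts. Another member at least 95% identical was found for 108, which held 95.4% of the Trav counts. No Trbv gene had a neighbour in sequence of 95% or more, and the median identity of a Trbv transcript to its nearest relative was 64.71%, against 98.54% for Trav. The pair Trav7-4 and Trav7d-4 shows the scale of the problem. Their transcripts of 451 bases differ by C130T and A317C (the base of Trav7-4, its position from the 5′ end of the transcript, the base of Trav7d-4), and bases 287 to 346 are printed with the differing base in capitals.
Trav7-4, chr14:53461099-53461738, plus strand: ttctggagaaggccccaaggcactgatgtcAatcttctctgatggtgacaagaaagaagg
Trav7d-4, chr14:52769753-52770392, plus strand: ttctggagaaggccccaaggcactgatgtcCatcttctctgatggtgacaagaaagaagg
The expected counts deposited by the authors share reads among such copies, so counts of single Trav genes are uncertain, and Trav results are also given by family, that is summed over genes with the same family number.

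Total counts per library ranged from 13518814 to 23056686. The tissue and cell type labels were checked on fixed markers. Cd4 stood at 889 ± 9.75, 591 ± 18.7 and 545 ± 12.1 CPM (counts scaled to library size with TMM factors, mean ± SD, n = 3) in fresh, cultured and IL-1b-treated cells. Both CD8 T cell markers, Cd8a and Cd8b1, rose in culture, from a summed 23.0 to 26.5 CPM in the fresh libraries to 47.7 to 59.7 in the cultured and 56.4 to 63.5 in the IL-1b-treated ones. All 7 named B cell genes fell, from a summed 404 to 458 CPM in fresh to 189 to 197 in cultured libraries. Their median log2 fold change was -3.36, a larger fall than that of the sum. Of all tested genes 29.4% rose and 28.9% fell between cultured and fresh cells. The 345 Ighv and Igkv segments, of which 1 was tested and fell, together stood at 11.95 to 20.8 CPM and then 0.52 to 0.75. Both tested NK cell markers fell, with the list at 13.9 to 16.1 CPM in fresh and 3.39 to 4.33 in cultured libraries. Gamma delta T cell genes lay between 8.34 and 11.8 CPM in fresh and cultured libraries, with Tcrg-C1 higher in cultured ones, and 3 of the 5 myeloid markers fell while 1 rose. CD8 cells use the same segments, and the part of any of these shifts in the results below was not tested.

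Variable segments made up a small part of the RNA. All Trav genes together drew 1680 to 4172 counts in a library and all Trbv genes 2484 to 5742. With a floor of 3 counts, which equals 0.130 to 0.222 CPM, 62 of 128 Trav genes and 20 of 35 Trbv genes were found in all 9 libraries. A further 49 Trav genes and 4 Trbv genes reached the floor in at least 1 library. The filter on low counts left 75 Trav genes (74 genes and the pseudogene Trav8-2) and 22 Trbv genes (21 genes and the pseudogene Trbv24) for testing. In every library 11 of the 13 Trbv pseudogenes had 0 counts.

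The segment Trav11, which the invariant receptor of natural killer T cells uses, was listed at 0 in all 9 libraries. The transcript of its copy Trav11d (342 bases) matched that of Trav11 (343 bases) at 100% identity. Reads of these copies can hardly be told apart, so the 0 gives no information on the use of Trav11. Trav11d had 20, 17 and 7 counts in the fresh, 11, 5 and 3 in the cultured and 8, 3 and 8 in the IL-1b-treated libraries. Zbtb16, the transcription factor that defines natural killer T cells with the invariant receptor, had 1 count over all libraries. The 76 joining and diversity segments, of 12 to 72 bases, all had 0 counts with an effective length of 0 in the authors' tables, so that their 0 gives no information on use.

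Among beta segments, usage was expressed as the share of a library's Trbv counts, which does not depend on the scaling of the libraries. Trbv13-2 had the highest mean share over the 9 libraries, with 12.01, 10.3 and 11.9% in fresh, 10.1, 9.46 and 10.4% in cultured and 8.48, 9.06 and 11.1% in IL-1b-treated cells. Trbv1, the segment at the upstream end of the locus, held 10.1, 9.79 and 9.14%, then 9.36, 9.28 and 9.13%, then 9.18, 10.8 and 9.56%. The ranges of the 3 groups overlapped for Trbv1, and for Trbv13-2 the lowest fresh library lay below the highest cultured one. The most used 8 segments of a library carried 64.2 to 67.8% of the Trbv counts.

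**Figure D1:**
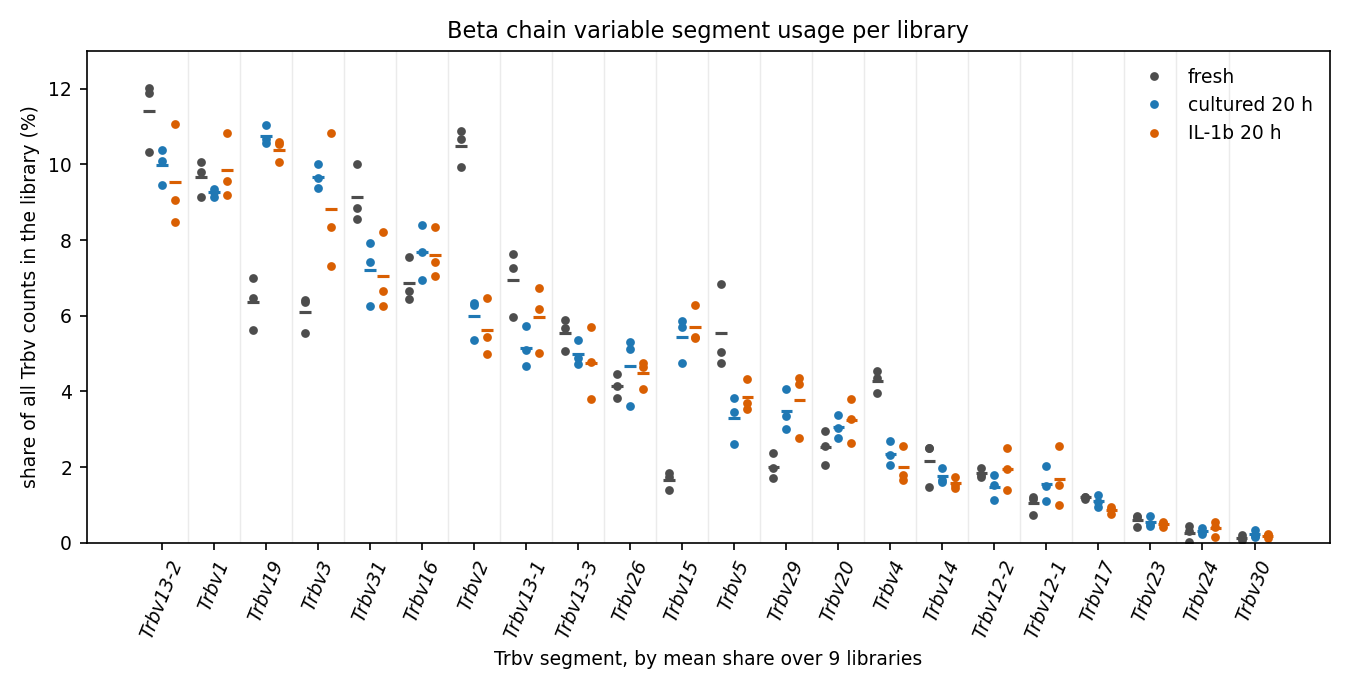
Share of each library's Trbv counts (%, y axis) for the 22 Trbv genes with a mean share of at least 0.1%, ordered by that mean (x axis); each point is a library, bars are means of 3, and colours mark the groups. Fresh libraries lie apart from both cultured groups for Trbv15, Trbv19, Trbv3, Trbv2, Trbv4 and Trbv5, while the cultured and IL-1b-treated points mostly overlap.

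The order of the segments was not the same in fresh and in cultured cells. Trbv15 held 1.84, 1.39 and 1.73% of Trbv counts in the fresh libraries and 4.76, 5.71 and 5.87% in the cultured ones. Trbv19 held 5.61, 6.48 and 7.004% in fresh and 10.6, 11.03 and 10.7% in cultured cells, where it was the most used segment in each library. Trbv3 held 5.55, 6.41 and 6.36% and then 9.64, 9.37 and 10.0%. For these 3 segments every cultured library lay above every fresh one. The same was true of Trbv29, at 1.97, 1.70 and 2.37% against 3.001, 3.35 and 4.07%.

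Other segments took a smaller part of the beta counts after culture. Trbv2, among the most used segments of fresh cells with 10.7, 10.9 and 9.94%, held 6.28, 5.35 and 6.35% in cultured cells. Trbv4 held 4.35, 3.97 and 4.54% against 2.07, 2.69 and 2.31%, and Trbv5 held 5.03, 4.75 and 6.83% against 3.46, 3.83 and 2.60%. No fresh and cultured library overlapped for these 3 segments. Trbv4 and Trbv5 overlap the long non-coding gene 5830405F06Rik on the same strand, which had 18.7 to 53.6 counts in a library and may share reads with them. Trbv13-1 (6.94 ± 0.874% against 5.16 ± 0.526%, SD, n = 3) and Trbv31 (9.14 ± 0.768% against 7.20 ± 0.864%), the segment that lies inverted downstream of the constant regions, were also lower in cultured cells. In all, the shares of fresh and cultured libraries did not overlap for 9 of the 22 tested Trbv genes, while 67.1% of all tested genes did not overlap when expressed against the Trbv sum in the same way.

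These shares were tested with edgeR's quasi-likelihood F test over all genes, with the libraries scaled to their summed Trbv counts. Between cultured and fresh cells, 4 of the 22 tested Trbv genes rose and 5 fell at a Benjamini-Hochberg adjusted p under 0.05. On this scale 63.1% of all 13043 tested genes were called, 8.75% as higher and 54.4% as lower, because the whole library is then measured against the Trbv sum. Trbv15 changed most, with a log2 fold change of usage of 1.71 ± 0.178 (SE, adjusted p = 1.01e-12). Trbv29 rose by 0.80 ± 0.206 (adjusted p = 0.000638), Trbv19 by 0.77 ± 0.125 (adjusted p = 2.71e-07) and Trbv3 by 0.67 ± 0.136 (adjusted p = 1.88e-05). Trbv4 fell by 0.86 ± 0.203 (adjusted p = 0.000192), Trbv2 by 0.81 ± 0.134 (adjusted p = 3.48e-07), Trbv5 by 0.73 ± 0.174 (adjusted p = 0.000201), Trbv13-1 by 0.44 ± 0.147 (adjusted p = 0.00746) and Trbv31 by 0.34 ± 0.134 (adjusted p = 0.0213). With 3 libraries against 3, an exact permutation test of any single share cannot go below a two-sided p of 0.1.

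IL-1b-treated cells held the same segments at shares close to those of cultured cells. Trbv15 stood at 5.40, 5.45 and 6.30%, Trbv19 at 10.0, 10.5 and 10.6%, Trbv2 at 4.98, 6.46 and 5.43% and Trbv4 at 2.56, 1.65 and 1.79%. Between IL-1b-treated and cultured cells 0 of the 22 tested Trbv genes differed in usage in the edgeR test, with 0 also at an unadjusted p under 0.05. The log2 fold changes of usage of the 22 genes lay between -0.34 and 0.40. On this scale, which centres the Trbv genes and shifts the rest of the library, 58.1% of all genes were called. Of these, 87 were higher and 7490 lower, and the median log2 fold change of all tested genes was -0.45. Between IL-1b-treated and fresh cells, which share the fresh libraries with the comparison above, 5 Trbv genes rose and 5 fell in usage, with 78.4% of all genes called (5.86% higher and 72.5% lower), and Trbv15 differed by 1.78 ± 0.176 (SE, edgeR, adjusted p = 6.21e-14).

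The whole usage profile was compared between libraries as the share of counts that would have to move between segments to turn one library into another. For beta segments, pairs of libraries within a group differed by 5.49 to 9.47%. Fresh and cultured libraries differed by 14.1 to 17.9%, and fresh and IL-1b-treated libraries by 14.8 to 17.7%, without overlap with the pairs within groups. Cultured and IL-1b-treated libraries differed by 6.31 to 7.62%, inside the range seen within groups. The 3 IL-1b-treated libraries differed more among themselves (7.75 to 9.47%) than the fresh (5.79 to 6.75%) or cultured ones (5.49 to 6.31%).

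**Figure D2:**
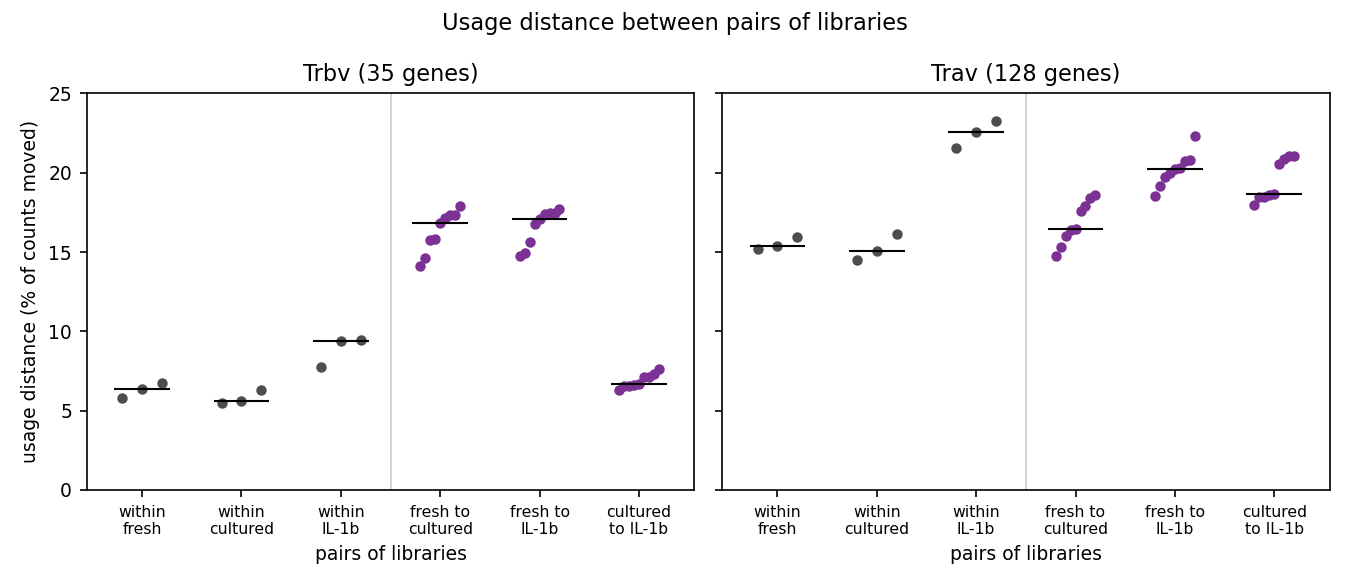
Usage distance (% of counts that would move between segments, y axis) for each pair of libraries, within and between groups (x axis), for Trbv on the left and Trav on the right; points are pairs and lines medians. Only the Trbv distances from fresh to either cultured group, 14.1 to 17.9%, lie above all distances within groups.

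The evenness of beta usage differed little between the groups. The effective number of beta segments (the exponential of Shannon's entropy, which would equal the number of segments if all were used alike) was 16.2 ± 0.228 in fresh, 16.6 ± 0.265 in cultured and 16.7 ± 0.112 in IL-1b-treated cells (SD, n = 3). By position, Trbv2 to Trbv5 together held 26.4 ± 1.10% of Trbv counts in fresh, 21.3 ± 0.113% in cultured and 20.3 ± 1.53% in IL-1b-treated cells, although Trbv3 within this block was higher. Trbv6 to Trbv30 held 54.8 ± 0.877, 62.2 ± 0.992 and 62.8 ± 2.11%. Within this block the Trbv13 family went the other way, with 23.9 ± 1.26, 20.1 ± 0.662 and 20.3 ± 2.10%. Across the 22 tested Trbv genes, the log2 fold change between cultured and fresh cells had a Pearson correlation of -0.24 with the GC content of the transcript, -0.04 with its length and 0.15 with its start on the chromosome. The Spearman correlations were -0.33, -0.09 and 0.39. With the mean share in fresh libraries, which also enters the fold change, the values were -0.39 (Pearson) and -0.40 (Spearman). With the mean share over all 9 libraries both were -0.05. These are descriptions over genes that share libraries.

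On the scale of all genes (TMM), the level of a segment also moves with the amount of receptor RNA. Between cultured and fresh cells 9 of 22 tested Trbv genes rose and 1 fell, with a median log2 fold change of 0.38. Of all tested genes 29.4% rose and 28.9% fell (58.2% in all), with a median of 0.004. Once each library's trend on effective length was removed, 6 Trbv genes rose and 3 fell, with a median of 0.10. All tested genes then gave 3818 higher and 3610 lower. On log2(TPM + 1) 5 Trbv genes rose and 3 fell, with a median of 0.03, beside 1877 of all genes higher and 4842 lower. Trbv15 rose from 3.68, 2.67 and 3.03 CPM to 12.2, 15.7 and 14.4 CPM, a log2 fold change of 2.15 ± 0.161 (SE, edgeR, adjusted p = 9.03e-11). Trbv29, Trbv19 and Trbv3 rose by 1.25 ± 0.199, 1.23 ± 0.1001 and 1.12 ± 0.121 (adjusted p = 1.13e-05, 3.83e-10 and 3.91e-08, edgeR). These 4 genes rose in usage as well as in level. Trbv12-1 (1.06), Trbv20 (0.71), Trbv26 (0.62), Trbv16 (0.61) and Trbv1 (0.38) also rose in level, without a called change in usage, where Trbv1 had the opposite sign (-0.07). Of the 5 genes that fell in usage, only Trbv2 was called lower in level. In the fit by family Trbv4, Trbv5 and Trbv31, each alone in its family, had level changes of -0.40, -0.27 and 0.10. None of these passed (adjusted p = 0.0774, 0.19 and 0.47, edgeR). A lower share is relative to the chain and does not by itself mean a lower level.

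Trbv2 was the called beta gene that fell, from 21.3, 20.8 and 17.4 CPM to 16.1, 14.7 and 15.6 CPM, by 0.36 ± 0.120 (SE, edgeR, adjusted p = 0.0127). This call was lost without fresh replicate 1, fresh replicate 2 or cultured replicate 2, with an adjusted p of up to 0.0664 (edgeR). Leaving out any 1 of the 6 libraries compared kept the calls of Trbv15, Trbv29, Trbv19, Trbv3, Trbv20, Trbv26, Trbv16 and Trbv1, while that of Trbv12-1 was lost without fresh replicate 1 or cultured replicate 1.

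**Figure D3:**
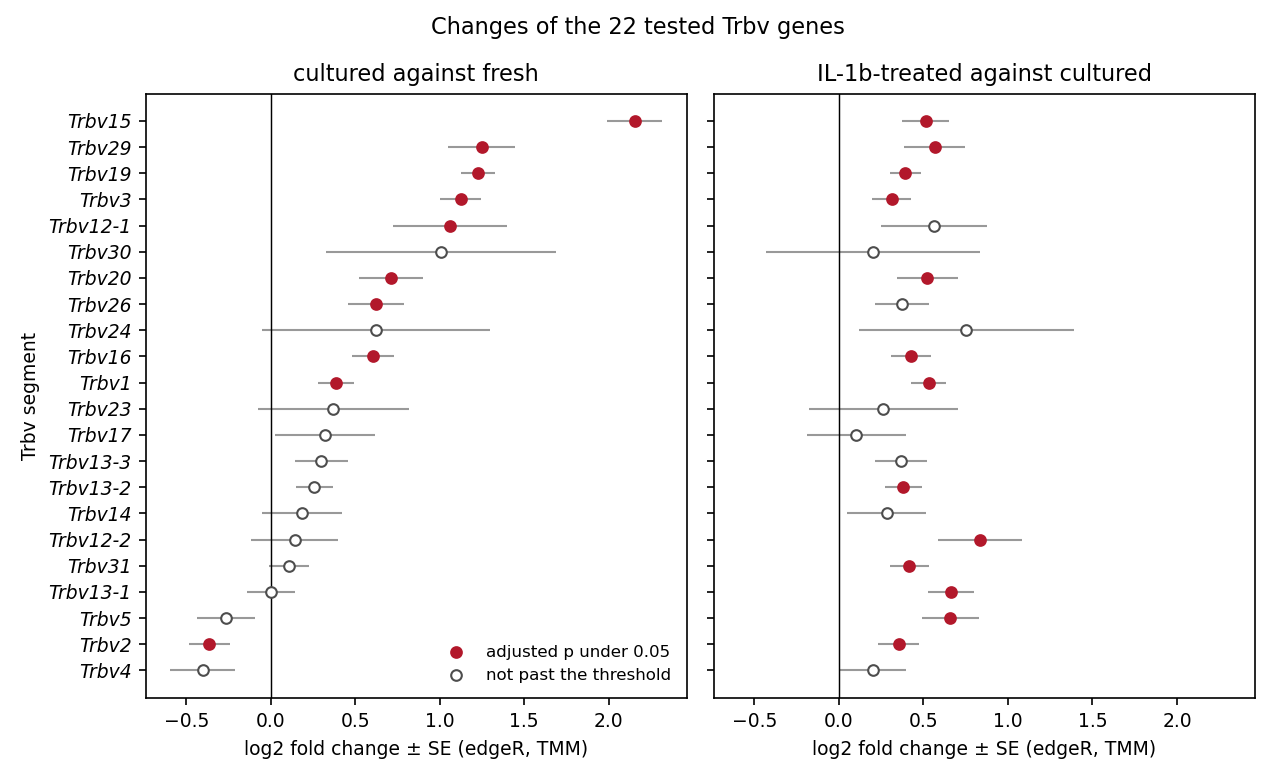
Log2 fold changes with SE (x axis, edgeR on TMM-scaled counts) of the 22 tested Trbv genes (y axis), ordered by the change between cultured and fresh cells; filled points passed an adjusted p of 0.05. On the left Trbv15 reaches 2.15 and Trbv2 is called lower; on the right all 22 values lie between 0.10 and 0.83, whereas 13 were negative with the effective length trend removed and 8 on log2(TPM + 1).

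Between IL-1b-treated and cultured cells, 13 of 22 tested Trbv genes rose and 0 fell on the TMM scale, where 15.6% of all tested genes rose and 13.3% fell (28.9% in all). The values of all 22 were positive, with a median of 0.40 and a narrow range from 0.10 to 0.83. Trbv1 rose from 24.0, 25.6 and 22.5 CPM to 31.7, 38.3 and 34.2 CPM (0.53 ± 0.103, SE, edgeR, adjusted p = 0.000401). Trbv13-1 rose by 0.66 ± 0.138 and Trbv5 by 0.66 ± 0.169 (adjusted p = 0.000806 and 0.00476, edgeR). The calls depended on how length was treated, with 0 of 22 Trbv genes called once each library's trend on effective length was removed (edgeR, 0 at an unadjusted p under 0.05, with 22.7% of all genes called) and 0 of 22 in limma on log2(TPM + 1) (36.3% of all genes). Without cultured replicate 1, 7 Trbv genes were called. On the former scale 13 of the 22 values were negative, among them those of the called genes Trbv2, Trbv3, Trbv13-2, Trbv16, Trbv20 and Trbv31, and on log2(TPM + 1) 8 were. The median effective length of Trbv genes in the authors' tables was 135 ± 6.36, 138 ± 5.15 and 151 ± 1.58 bases in fresh, cultured and IL-1b-treated libraries, while that behind a count of any gene fell from 2359 to 2380 bases in fresh to 1781 to 1794 in IL-1b-treated libraries.

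Against fresh cells, IL-1b-treated cells had 15 of 22 Trbv genes higher and 0 lower on the TMM scale, with a median of 0.95, beside 32.9% of all genes higher and 32.6% lower (65.5% in all). With the length trend removed 7 Trbv genes were higher and 3 lower, beside 4245 of all genes higher and 4131 lower. On log2(TPM + 1) 7 were higher and 2 lower, beside 1527 of all genes higher and 7113 lower. The following levels are those on the TMM scale. Trbv15 reached 18.6, 19.3 and 22.5 CPM and a log2 fold change of 2.67 ± 0.159 (SE, edgeR, adjusted p = 9.44e-13). Trbv13-1, Trbv13-2, Trbv13-3, Trbv31 and Trbv5 were higher on this scale and had negative values in usage, on the TPM scale and with the length trend removed. In usage Trbv13-2, Trbv31 and Trbv5 passed the test as lower, and Trbv13-1 and Trbv13-3 did not (adjusted p = 0.147 and 0.172, edgeR). The call of Trbv5 in level (0.39 ± 0.165, adjusted p = 0.0409, edgeR) was lost without fresh replicate 1 or 2 or IL-1b-treated replicate 2 or 3, and with upper quartile or library size scaling or the replicate block.

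Summed over each chain, the beta and alpha segments moved in opposite directions between fresh and cultured cells. Trbv genes together stood at 200, 192 and 175 CPM in fresh, 256, 276 and 246 CPM in cultured and 345, 354 and 358 CPM in IL-1b-treated libraries. Trav genes together stood at 173, 164 and 158 CPM, then 111, 105 and 105 CPM, then 139, 136 and 135 CPM. In neither chain did any of the 3 groups overlap. In TPM, which corrects for effective length, the Trav sum was 1657 ± 17.8, 858 ± 63.4 and 850 ± 20.0 and the Trbv sum 1851 ± 63.7, 1986 ± 74.7 and 2115 ± 57.1 (SD, n = 3), so that the difference between cultured and IL-1b-treated cells was within the spread for Trav and a ratio of 1.065 for Trbv.

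The constant regions changed in the same direction as the sums of their variable segments on the TMM scale. Trac fell from 466 ± 6.40 to 293 ± 4.41 CPM in culture (log2 fold change -0.67 ± 0.031, SE, edgeR, adjusted p = 1.38e-14) and stood at 350 ± 8.13 CPM with IL-1b. Trbc1 and Trbc2 rose in culture by 0.24 ± 0.043 and 0.38 ± 0.032 (adjusted p = 5.48e-05 and 7.14e-10, edgeR). In TPM, the sum of Trbc1 and Trbc2 overlapped between groups in every comparison. Its ratios of the means were 1.045 (cultured against fresh), 1.033 (IL-1b-treated against cultured) and 1.079 (IL-1b-treated against fresh). Trac in TPM was lower in cultured than in fresh cells (ratio 0.511), without overlap. Between IL-1b-treated and cultured cells it overlapped, with a ratio of 0.953. For each 100 counts of the constant region there were 35.4 ± 1.53, 36.4 ± 1.73 and 38.9 ± 0.980 Trav counts, and 20.4 ± 0.981, 22.3 ± 1.68 and 23.2 ± 0.974 Trbv counts, in fresh, cultured and IL-1b-treated cells. Fresh and cultured ranges of these ratios overlapped in both chains, while IL-1b-treated libraries lay above all fresh ones, with ratios of the means of 1.10 for Trav and 1.14 for Trbv.

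**Figure D4:**
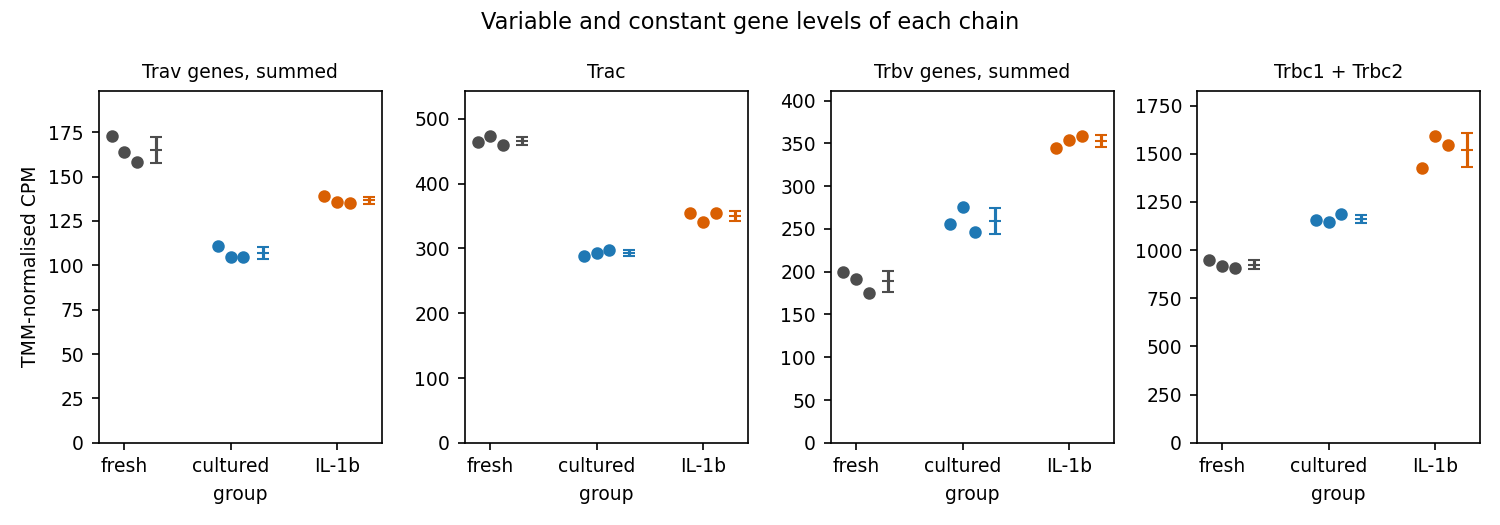
TMM-normalised CPM (y axis, from 0) of all Trav genes, Trac, all Trbv genes and Trbc1 with Trbc2, per library and group (x axis), with mean ± SD of 3 libraries at the right of each group. Trav and Trac are lowest in cultured cells, at 105 to 111 and 289 to 297 CPM, while Trbv and the beta constant regions rise from fresh to cultured to IL-1b-treated cells on this scale.

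Alpha counts were spread over many more annotated genes, with an effective number of 68.1 ± 0.678 in fresh, 68.2 ± 1.04 in cultured and 65.0 ± 2.21 in IL-1b-treated cells. Copies that share reads count as separate genes in this number. Summed by family, the mean effective number over all libraries was 11.6 for Trav and 12.9 for Trbv. The most used genes were the identical copies Trav14d-1 and Trav14n-1, whose equal values are a split of shared reads, each with 3.33, 3.36 and 2.74% of Trav counts in fresh, 3.79, 3.52 and 3.51% in cultured and 4.89, 3.86 and 3.47% in IL-1b-treated cells. Trav7-2, Trav4-4-dv10, Trav14d-3-dv8, Trav7-4, Trav9-2 and Trav3-3 followed with mean shares of 3.23, 3.17, 3.09, 3.08, 3.03 and 2.82%. The shares of the groups overlapped for each of these 6 genes. The transcript of Trav7-2 (336 bases) matched that of Trav7d-2 (337 bases) at 100% identity, and Trav7d-2 was listed at 0 in all libraries. Reads of these copies can hardly be told apart, so the counts of Trav7-2 may include reads of Trav7d-2. By family, Trav14 led with 19.5% of Trav counts over all libraries, ahead of Trav7 (11.6%), Trav6 (11.4%), Trav9 (10.9%) and Trav4 (9.58%).

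Between cultured and fresh cells 0 of 75 tested Trav genes rose and 18 fell in level, beside 29.4% of all genes that rose and 28.9% that fell, with a Trav median of -0.67 that lay close to the change of Trac. Identical copies such as Trav4d-3 and Trav4n-3, which hold a split of the same reads, each count among the 75. The number of calls and the median are therefore not over independent genes. Trav7-4 fell from 128, 95 and 69.7 counts to 33.7, 53.7 and 35.8 counts (log2 fold change -1.02 ± 0.253, SE, edgeR, adjusted p = 0.00143), and Trav4-3 by 1.42 ± 0.392 (adjusted p = 0.00344, edgeR). The number of called Trav genes fell to between 6 and 10 when any 1 of the fresh or cultured libraries was left out. It was 32 with the effective length trend removed (27.7% of all genes lower) and 48 in limma on log2(TPM + 1) (37.1% lower). Summed by family, 10 of the 17 tested Trav families, of 23 in all, fell and 0 rose, with 29.1% of all tested genes lower in that fit. Trav7 fell by 0.88 ± 0.129 (adjusted p = 3.08e-06, edgeR), Trav14 by 0.61 ± 0.0972 (adjusted p = 1.12e-05) and Trav8 by 1.11 ± 0.264 (adjusted p = 0.000927). Trav6 was not called (-0.30 ± 0.131, adjusted p = 0.0564, edgeR).

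In usage, that is scaled to the summed Trav counts, 1 of 75 Trav genes rose and 0 fell between cultured and fresh cells, beside 73.1% of all genes called on this scale (66.3% higher and 6.75% lower). The gene was Trav6-5, named after its values were seen, with 1.51, 1.63 and 1.38% of Trav counts in fresh and 3.29, 2.95 and 2.38% in cultured cells (0.93 ± 0.371, SE, edgeR, adjusted p = 0.0249). In IL-1b-treated cells it held 2.03, 4.55 and 1.05%, which spanned both groups. Alpha usage distances between groups, 14.8 to 22.3%, overlapped those within groups, 14.5 to 23.3%, and again the IL-1b-treated libraries differed most among themselves (21.6 to 23.3%), with 1890 to 2313 Trav counts each against 1680 to 1701 in the cultured ones. Whether the preparation of these libraries bears on this spread was not tested.

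**Figure D5:**
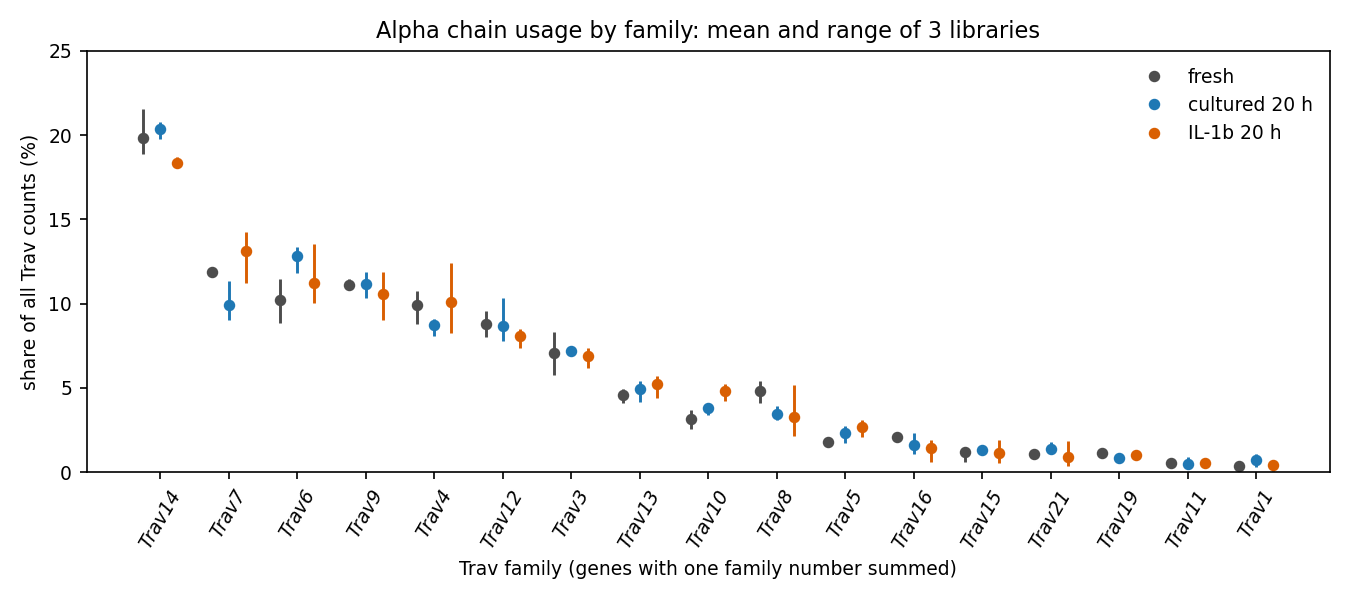
Share of each library's Trav counts (%, y axis) by Trav family (x axis), as the mean (point) and range (line) of 3 libraries per group, for families with a mean of at least 0.5%. Trav14 leads in every group at 18.2 to 21.5%, and the ranges of the groups overlap for most families.

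IL-1b-treated cells had 3 of 75 Trav genes higher than cultured cells and 0 lower, with a median of 0.36, where 15.6% of all genes were higher and 13.3% lower. These were Trav7-4 (0.91 ± 0.257, SE, edgeR, adjusted p = 0.00919), Trav7-2 (0.70 ± 0.246, adjusted p = 0.0352) and Trav7d-4 (1.52 ± 0.544, adjusted p = 0.0392). All 3 belong to the Trav7 family, which held 11.9 ± 0.204% of Trav counts in fresh, 9.92 ± 1.25% in cultured and 13.1 ± 1.67% in IL-1b-treated cells and rose by 0.74 ± 0.131 as a family (adjusted p = 0.000128, edgeR). The families Trav4 (0.55 ± 0.151, adjusted p = 0.00772) and Trav10 (0.69 ± 0.215, adjusted p = 0.0185) rose as well, so that 3 of 17 tested families were called higher beside 15.8% of all genes in that fit (edgeR). With the effective length trend removed 0 of 75 Trav genes were called (edgeR, 3 at an unadjusted p under 0.05) and the median was -0.08, while on log2(TPM + 1) 1 was higher, Trav7-4, and 2 lower. The ranges of the share of the Trav7 family in cultured (9.001 to 11.3%) and IL-1b-treated cells (11.2 to 14.3%) overlapped slightly. For 2 of the 23 families the ranges did not overlap. Trav10 held 3.39 to 4.12% in cultured and 4.24 to 5.23% in IL-1b-treated cells, and Trav14 held 19.8 to 20.8% and 18.2 to 18.7%. The shares of families were not tested. In usage 0 of 75 Trav genes were called (edgeR, 3 at an unadjusted p under 0.05). On that scale 52.7% of all genes were called, 259 as higher and 6620 as lower. Leaving out either cultured replicate 1 or replicate 3 of the IL-1b-treated cells ended each of the 3 calls in level, and those of Trav7-2 and Trav7d-4 were also lost without other single libraries. Against fresh cells IL-1b-treated cells had 0 Trav genes higher and 3 lower (Trav14-2, Trav14-3 and Trav6-3), against 32.6% of all genes lower. The count depended on the scale, with 11 lower under library size scaling (40.5% of all genes), 44 with the length trend removed (31.7%) and 57 on log2(TPM + 1) (54.5%). In usage 1 was higher and 1 lower (Trav10n and Trav14-3, named like Trav14-2 and Trav6-3 after their values were seen), where 64.6% of all genes were called (44.3% higher and 20.3% lower).

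By position, segments without a copy letter held 55.8 ± 0.366% of Trav counts in fresh, 52.4 ± 0.725% in cultured and 52.5 ± 1.47% in IL-1b-treated cells. The n copies held 20.99 ± 0.594, 23.1 ± 0.438 and 23.1 ± 0.599% and the d copies 23.2 ± 0.274, 24.6 ± 0.333 and 24.4 ± 1.26% (SD, n = 3). Fresh and cultured ranges did not overlap for any of the 3 sets, although the shared reads of near-identical copies limit how far d, n and unlettered copies can be separated.

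The receptor reaches the cell surface with the CD3 chains, which carry the signal into the cell. Cd3d rose from 273 ± 6.38 to 380 ± 3.51 CPM in culture and to 524 ± 6.43 CPM with IL-1b, and Cd3g and Cd247 also rose at both steps. Cd3e fell at both, from 397 ± 3.46 to 253 ± 7.58 and 219 ± 8.29 CPM (SD, n = 3). On the TMM scale 3 of 4 CD3 chains thus rose and 1 fell in each comparison. Of all genes 29.4% rose and 28.9% fell between cultured and fresh cells. The shares were 15.6% and 13.3% between IL-1b-treated and cultured cells, and 32.9% and 32.6% between IL-1b-treated and fresh cells. Of 20 coreceptor and proximal signalling genes, 2 rose (Trat1 and Themis) and 16 fell between cultured and fresh cells (29.4% and 28.9% of all genes), among them Cd4, the kinases Lck, Fyn and Zap70 and the adaptor Lat. Between IL-1b-treated and cultured cells 5 rose and 7 fell (15.6% and 13.3% of all genes). Of the recombination genes, which join segments in developing lymphocytes, Rag1 had 2 counts over all libraries, Dntt was not called between cultured and fresh cells (14.2 ± 1.81 and 11.6 ± 1.53 CPM), and Rag2 rose from 1.27 ± 0.339 to 3.08 ± 0.281 CPM (1.27 ± 0.332, SE, edgeR, adjusted p = 0.00218).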

How the data were processed

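Per the submitters' processing notes, STAR and RSEM were run on mm10, with versions, annotation release and strand setting not given in the sources used here. Libraries were made with a directional kit, per the labels' protocols. Per the file headers, the deposited expected counts are RSEM estimates that are not normalised, and the TPM values were made by the authors from them and from effective lengths. Expected counts were rounded. Symbols and biotypes came from GENCODE M21.

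The main test was that of edgeR 4.0.16 under R 4.3.3 (counts scaled by TMM, filterByExpr; a quasi-likelihood F test in 1 model of group over the 9 libraries; p-values adjusted by Benjamini-Hochberg across 13043 genes, threshold 0.05). Usage was tested in separate fits of the same model, without TMM factors and with library sizes replaced by the summed Trav or Trbv counts. Alternatives were DESeq2 1.42.0, limma 3.58.1, other scalings and filters, removal of the trend on effective length, and leaving out libraries. The family sums were added after seeing the data. The fit was tested on simulated data.

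Members, lists and the naming rule (the 8 most used Trav, all Trbv genes, up to 10 called segments per comparison by smallest adjusted p with a mean of at least 10 counts, and a fixed panel) were chosen with earlier results of these data known. Nothing in the labels ties replicates to separate mice or cultures, and the p-values then cover only the spread between these samples, which may be technical.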

Additional observations from a re-analysis of the deposited data

How the results depend on the processing

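The number of called segments was 16, 28 and 18 between IL-1b-treated and cultured, cultured and fresh, and IL-1b-treated and fresh cells. It changed to 3, 56 and 66 on log2(TPM + 1), to 3, 56 and 65 on log2(TPM + 0.1), to 0, 41 and 54 with the effective length trend removed, and for the first 2 comparisons to 0 and 10 when scaled to the chain's own counts. Library size scaling, which moved the median of all genes by -0.12 in the first comparison, gave 10 there. The scalings to Trav and Trbv sums moved that median by -0.36 and -0.45 in the first comparison and by 0.63 and -0.45 in the second. Leaving out 1 library gave 7 to 16, 15 to 29 and 17 to 21 calls, with 7 without cultured replicate 1, 10 when replicate 3 of either group was left out, and 15, 18, 16 and 17 without fresh replicate 1 or 2 or cultured replicate 2 or 3. The replicate block gave 14, 22 and 17; same-numbered libraries did not deviate together (correlations of -0.022 to 0.019), so the numbers were not taken as pairs.

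Trav genes found in all libraries numbered 81 at a floor of 1 count, 34 at 10 counts and 16 as families, against 62. The mean effective number of Trav genes, 67.1, became 69.9 on TPM and 11.6 by family, and that of Trbv genes, 16.5, became 12.9 by family. The excess of the distance between cultured and fresh cells over that within them was 10.3 points for Trbv, 8.74 on TPM and 9.66 to 10.8 leaving out 1 library, with both ends at cultured replicate 2 and fresh replicate 3. For Trav it was 1.45 points and 0.811 to 2.06 (without fresh replicate 3 and 1).

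Of the 22 tested Trbv genes 0, 3 and 2 had a negative log2 fold change in the 3 comparisons, against 13, 12 and 10 when scaled to Trbv, which centres them by construction, 13, 8 and 10 with the length trend removed and 8, 11 and 10 on log2(TPM + 1). Among segments called in the comparison and named here, signs turned as follows. Between IL-1b-treated and cultured cells, scaling to Trbv gave -0.064 for Trbv13-2, -0.014 for Trbv16, -0.0500 for Trbv19, -0.092 for Trbv2, -0.13 for Trbv3 and -0.028 for Trbv31. Removing the length trend gave -0.15 for Trbv13-2, -0.051 for Trbv16, -0.029 for Trbv2, -0.013 for Trbv20, -0.13 for Trbv3 and -0.052 for Trbv31. The 2 TPM scales gave -0.0029 and -0.0029 for Trbv13-2 and -0.054 and -0.054 for Trbv3. Between cultured and fresh cells Trbv1 was -0.066 when scaled to Trbv. Between IL-1b-treated and fresh cells, the values scaled to Trbv, on log2(TPM + 1), on log2(TPM + 0.1) and with the length trend removed were -0.22, -0.033, -0.033 and -0.11 for Trbv13-1, -0.26, -0.10, -0.10 and -0.16 for Trbv13-2, -0.23, -0.077, -0.077 and -0.13 for Trbv13-3, -0.37, -0.19, -0.19 and -0.22 for Trbv31, and -0.51, -0.32, -0.32 and -0.38 for Trbv5. The causes were not tested. At 1680 to 5742 counts per chain, segments under the floor of 3 counts may be in use without being seen.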
